A study of Mus musculus with 10 samples.

Results

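Mitosis and G2/M genes are described here in whole 4T1 mammary tumors of cells given a control guide RNA or a guide RNA against the gene of TAZ. They are 52 genes listed by name for cyclins, mitotic kinases, the spindle checkpoint, the kinetochore, the spindle, cytokinesis, condensin and the transcription factors that drive them. All 52 were found by symbol among the 17864 genes of the count table, and all 52 were among the 14816 genes that were abundant enough to be tested.

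4T1 is a mouse triple-negative mammary carcinoma line. Both groups carried Cas9, with a control guide RNA in the sgCon tumors and a guide RNA against Wwtr1, the gene of the transcriptional co-activator TAZ, in the sgTaz tumors. RNA of the whole tumor was sequenced, 5 tumors in each group, from 100000 cells injected into the mammary fat pad of female mice 6 to 8 weeks old. For such injections the methods name BALB/c and SCID mice, and the sample labels give no strain. Whether the edited line was a clone or a pool is not given in the sources used here. Because the whole tumor was taken, a different share of dividing cells and a different amount of RNA per dividing cell cannot be told apart.

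A cell that has copied its DNA enters mitosis when cyclin B and CDK1 become active. The kinetochore then joins each chromosome to the spindle, the spindle checkpoint delays separation until all are attached, and the anaphase-promoting complex (APC/C) releases the cell into division. Many of the genes, though not all, are switched on together late in the cell cycle. Their promoters often hold a cell cycle genes homology region (CHR), which is bound by the DREAM repressor in resting cells and by MuvB with B-MYB and FOXM1 in dividing cells.

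The CHR was looked for in RefSeq promoter windows of assembly GRCm38.p6, each from 250 bases before to 50 bases after a transcript start. Windows were given for 43 of the 52 genes, 46 windows in all. Both strands were searched for TTTGAA, for the variant TTCGAA and for CCAAT, the CCAAT box. The first of these, TTTGAA, was found in 76.1% of the windows of these genes and in 17.9% of all 32851 windows. TTTGAA or TTCGAA was found in 80.4% against 19.2%, and a CHR together with a CCAAT box in 69.6% against 7.52%. The share with TTTGAA was 36.2% in the windows of other mitosis genes and 15.4% in those of DNA replication genes. A TATA box, TATAAA, was present in 2.17% of the windows against 13.6% of all. These are matches of letters and no measurement of binding.

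To show what the element looks like, the 30 bases around the CHR nearest to the start are given for the 7 genes that DESeq2 and limma-voom called, and for the 3 genes with a CHR whose edgeR p was highest. Each is written 5′ to 3′ along the strand of the gene, with only the CHR nearest to the start in capitals. The bases of Anln hold another match, TTTGAA at position 29, in lowercase. TTCAAA is TTTGAA read on the other strand.
Knl1: agggcggttagaTTTGAAtacttcagggac
Anln: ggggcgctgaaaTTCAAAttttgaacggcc
Top2a: gctagataaaggTTCAAAtgaaactaggga
Ndc80: gaaactttaaaaTTCAAAccgccttgggtt
Prc1: cctctggctcggTTTGAAttccgcggggtc
Cenpf: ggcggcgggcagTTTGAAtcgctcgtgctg
Hmmr: agttgaggtaaaTTTGAAttcaggcgagct
Ube2c: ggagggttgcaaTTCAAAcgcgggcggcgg
Bub3: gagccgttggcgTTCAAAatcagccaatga
Cdk1: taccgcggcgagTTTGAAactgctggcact

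The first base of the CHR lay at position 32 from the start in Knl1, 30 in Ndc80, 22 in Anln, 9 in Hmmr and 3 in Cenpf, where 1 is the first transcribed base. It lay at position -5 in Prc1, -15 in Cdk1, -23 in Top2a, -29 in Ube2c and -43 in Bub3, before the start. The windows are chr2:119047138-119047167 on the plus strand for Knl1, chr9:22389168-22389197 on the minus strand for Anln and chr17:71526811-71526840 on the minus strand for Ndc80. Over the 46 windows, 36 of 49 CHR matches lay between 100 bases before and 50 bases after the start.

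The part of the Top2a, Mki67 and Kif11 promoters that lies before the start is shown with CHR and CCAAT matches in capitals. Top2a had the second largest fold change of the list, Mki67 encodes the proliferation marker Ki-67, and Kif11 encodes the motor that pushes spindle poles apart. The stretches are chr11:99024190-99024339 (minus strand), chr7:135716380-135716529 (minus strand) and chr19:37376232-37376381 (plus strand), each 150 bases.
Top2a: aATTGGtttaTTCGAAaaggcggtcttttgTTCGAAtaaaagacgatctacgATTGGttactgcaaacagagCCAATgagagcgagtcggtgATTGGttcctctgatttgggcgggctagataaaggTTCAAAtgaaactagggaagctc
Mki67: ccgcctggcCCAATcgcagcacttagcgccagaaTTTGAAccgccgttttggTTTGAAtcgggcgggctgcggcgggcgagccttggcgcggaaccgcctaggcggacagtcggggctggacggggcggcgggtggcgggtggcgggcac
Kif11: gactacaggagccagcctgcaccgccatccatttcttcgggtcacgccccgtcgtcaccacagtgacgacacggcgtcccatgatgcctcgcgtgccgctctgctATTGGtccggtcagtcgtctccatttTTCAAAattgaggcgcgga

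Top2a held 3 CHR and 4 CCAAT matches in this stretch, Mki67 held 2 and 1, and Kif11 held 1 of each. The 34 genes with a CHR in a window had a median log2 fold change of 0.25 between sgTaz and sgCon, and the 9 without had 0.19. The genes with a CHR included both the largest fold change, of Knl1, and Cdk1, whose levels hardly differed between groups.

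Depth ran from 14753922 to 19595821 counts per sgCon tumor and from 12185383 to 18395558 per sgTaz tumor. The counts of these 52 genes were between 195 and 14219 per tumor. Levels are given in CPM, counts scaled to library size by TMM. Wwtr1 itself had 163.1 ± 30.2 CPM in sgCon and 108 ± 19.2 CPM in sgTaz tumors (SD, n = 5), a log2 fold change of -0.59 with an edgeR adjusted p of 0.0960. Its groups overlapped, since sgCon tumor 3 had 115 CPM and sgTaz tumor 4 had 139 CPM. DESeq2 gave Wwtr1 an adjusted p of 0.0130 and limma-voom 0.0280. No label ties the tumors to separate mice, so p-values measure the spread between these samples.

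Most mitosis and G2/M genes had a higher mean in sgTaz than in sgCon tumors, by small amounts. The log2 fold change was above 0 in 45 of 52, against 47% of all genes tested, and its median was 0.23 against -0.019 over all genes. Knl1, Top2a, Cenpf, Anln and Hmmr had the largest differences, between 1.34-fold and 1.51-fold. Cdk1, Smc4, Bub3 and Ube2c had nearly the same mean in both groups, and Birc5 had the lowest log2 fold change, -0.14.

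The edgeR quasi-likelihood test with Benjamini-Hochberg adjustment over all genes called 0 of the 52 in either direction. It called 1 of all genes higher (0.00675%) and 0 lower (0%). At an unadjusted p below 0.05, edgeR had 19 of the 52 higher in sgTaz (36.5%) and 0 lower, against 9.86% of all genes higher and 11.9% lower. DESeq2 called 7 of the 52 higher and 0 lower, against 3.6% and 3.63% of all genes. Limma-voom with sample quality weights also called 7 higher and 0 lower, against 4.63% and 5.8% of all genes. Both tools called the same 7 genes, Knl1, Anln, Top2a, Ndc80, Prc1, Cenpf and Hmmr. On simulated data DESeq2 made more false calls, 33 among 214, than limma-voom with 4 among 176 or edgeR with 6 among 179. Whether the tools make false calls at these rates on the tumors was not tested. In 5 of the 52 (9.62%) all sgTaz tumors lay above all sgCon tumors, against 2.44% of all genes, and in 0 they lay below, against 2.13%.

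**Figure D1:**
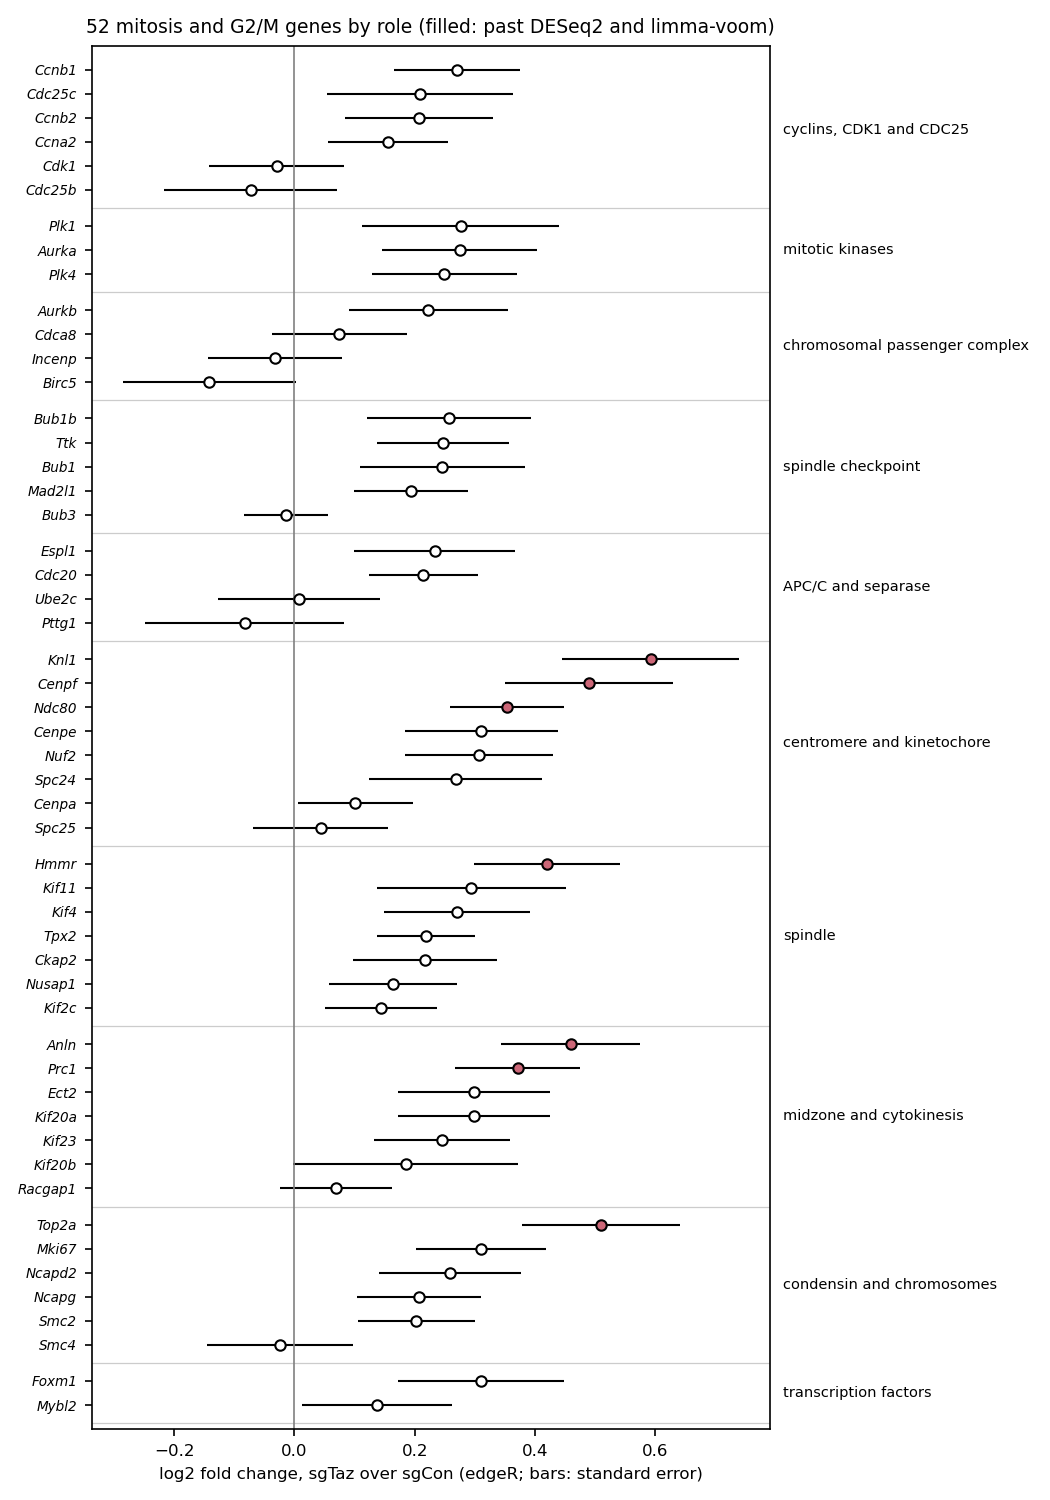
Log2 fold change between sgTaz and sgCon tumors (x axis, edgeR) for each of the 52 genes, grouped by role, with bars of 1 standard error. Points lie above 0 for 45 genes, and the 7 filled points are those called by DESeq2 and limma-voom, from Ndc80 at 0.35 to Knl1 at 0.59.

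The kinetochore held the largest difference. All 8 centromere and kinetochore genes had a log2 fold change above 0, with a median of 0.31, and 5 had an unadjusted edgeR p below 0.05. Knl1 (ENSMUSG00000027326.13, chromosome 2 from 119047119 to 119105501, plus strand) encodes the scaffold that joins microtubule binding to the checkpoint. Its levels in sgCon tumors 1 to 5 were 35.1, 32.7, 29.3, 20.3 and 33.1 CPM, and in sgTaz tumors 1 to 5 they were 51.9, 39.8, 45.4, 50.7 and 39.1 CPM. Every sgTaz tumor was above every sgCon tumor. Knl1 differed by a log2 fold change of 0.59 (SE 0.15), with adjusted p = 0.0960 by edgeR, 0.00730 by DESeq2 and 0.0280 by limma-voom.

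Ndc80 (ENSMUSG00000024056.10, chromosome 17 from 71496100 to 71526857, minus strand) encodes the part of the kinetochore that grips microtubules. It had 27.1, 27.6, 30.3, 27.4 and 31.4 CPM in sgCon tumors 1 to 5, and 44.0, 33.9, 35, 37.5 and 33.3 CPM in sgTaz tumors 1 to 5. The groups did not overlap, and sgTaz tumor 1 stood highest. The log2 fold change of Ndc80 was 0.35 (SE 0.094), with adjusted p = 0.0999 by edgeR and 0.0168 by DESeq2.

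Cenpf, a large kinetochore and nuclear matrix protein, was singled out after its values were seen, because 2 tools called it. It had between 92.1 and 128 CPM in sgCon and between 116 and 188 CPM in sgTaz tumors, with a log2 fold change of 0.49 and an edgeR adjusted p of 0.105. Its groups overlapped at sgTaz tumor 5. Of the partners of Ndc80 in the same complex, Nuf2 had a log2 fold change of 0.31, Spc24 of 0.27 and Spc25 of 0.043. The motor Cenpe had 0.31, and the centromeric histone Cenpa had 0.10.

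Genes of the midzone and of cytokinesis had log2 fold changes above 0 in 7 of 7, with a median of 0.30 and 4 at an unadjusted p below 0.05. Anln (ENSMUSG00000036777.8, chromosome 9 from 22332012 to 22389188, minus strand) encodes anillin, the scaffold of the contractile ring. It had 204, 179, 184, 132 and 192 CPM in sgCon tumors 1 to 5, and 274, 234, 242, 265 and 211 CPM in sgTaz tumors 1 to 5. All sgTaz tumors lay above all sgCon tumors, and sgCon tumor 4 was the lowest of all. Anln differed by 0.46 on the log2 scale (SE 0.12), with adjusted p = 0.0960 by edgeR, 0.00766 by DESeq2 and 0.0282 by limma-voom.

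Prc1, which bundles microtubules between the separating chromosomes, was also singled out because 2 tools called it. It had between 58.9 and 81.7 CPM in sgCon and between 80.8 and 105 CPM in sgTaz tumors, with a log2 fold change of 0.37 and an edgeR adjusted p of 0.102. The groups met at the top of sgCon and the bottom of sgTaz. The cytokinesis activator Ect2 and the midzone motor Kif20a had log2 fold changes of 0.30 each, and Kif23 had 0.25. Racgap1, the partner of Kif23, had 0.070.

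Top2a led the genes of condensin and chromosome structure, of which 5 of 6 had a log2 fold change above 0, with a median of 0.23. Top2a (ENSMUSG00000020914.17, chromosome 11 from 98992943 to 99024189, minus strand) encodes the topoisomerase that untangles sister chromatids. It had 531, 514, 469, 421 and 499 CPM in sgCon tumors 1 to 5, and 905, 550, 690, 744 and 580 CPM in sgTaz tumors 1 to 5. The groups did not overlap, although sgTaz tumor 2 was near the highest sgCon tumor. For Top2a this was a log2 fold change of 0.51 (SE 0.13), with adjusted p = 0.0960 by edgeR, 0.00904 by DESeq2 and 0.0293 by limma-voom.

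Mki67 had 343 ± 42.3 CPM in sgCon and 426 ± 52.8 CPM in sgTaz tumors (SD, n = 5), with a log2 fold change of 0.31 and an edgeR adjusted p of 0.148. Its adjusted p was 0.0594 by DESeq2 and 0.0539 by limma-voom. The condensin subunits had unequal values, whose differences were not tested. Ncapd2 had a log2 fold change of 0.26, Ncapg of 0.21, Smc2 of 0.20 and Smc4, the partner of Smc2 in the same ring, of -0.024.

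All 7 spindle genes had a log2 fold change above 0, with a median of 0.22 and 3 at an unadjusted p below 0.05. Hmmr (ENSMUSG00000020330.16, chromosome 11 from 40701395 to 40733422, minus strand) encodes a hyaluronan receptor that also binds spindle microtubules. It had 58.2, 47.9, 45.5, 36.3 and 52.5 CPM in sgCon tumors 1 to 5, and 70.5, 58.8, 59.1, 72.3 and 61.1 CPM in sgTaz tumors 1 to 5. The groups did not overlap, but sgCon tumor 1 and sgTaz tumor 2 were nearly level. The log2 fold change of Hmmr was 0.42 (SE 0.12), with adjusted p = 0.108 by edgeR and 0.0220 by DESeq2. Kif11 had a log2 fold change of 0.29, Kif4 of 0.27, and Tpx2, which activates Aurora A on the spindle, of 0.22. Ckap2 had 0.22, Nusap1 0.16 and the microtubule depolymerase Kif2c 0.14.

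For the 5 genes without overlap, an exact two-sided permutation test of log2 CPM gave p = 0.00794, and 0.174 after adjustment over all genes. This is the smallest p that 5 tumors against 5 allow. Any gene without overlap gets it, so it restates the lack of overlap and is no separate test.

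**Figure D2:**
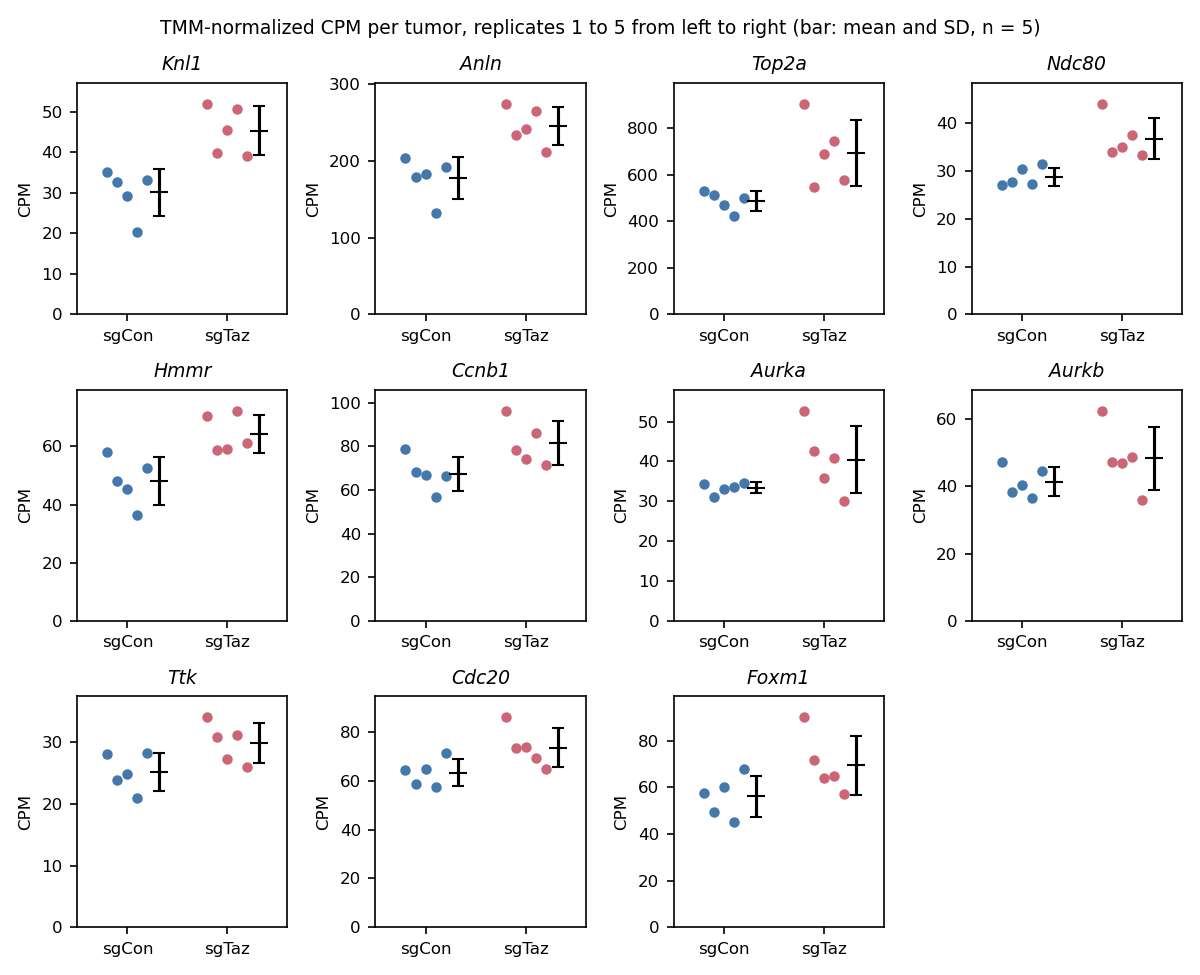
TMM-normalized CPM (y axis, from 0) in each sgCon (blue) and sgTaz (red) tumor for 11 genes, with replicates 1 to 5 from left to right and the mean and SD (n = 5) as a black bar. In Knl1, Anln, Top2a, Ndc80 and Hmmr all red points lie above all blue points, and in the other panels the groups overlap.

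Among the cyclins, CDK1 and its phosphatases, 4 of 6 genes had a log2 fold change above 0, with a median of 0.18. Ccnb1 (ENSMUSG00000041431.16), which encodes cyclin B1, had 78.8, 68.3, 67.0, 56.8 and 66.2 CPM in sgCon tumors 1 to 5, and 96.4, 78.4, 74.1, 86.3 and 71.5 CPM in sgTaz tumors 1 to 5. The groups overlapped. Ccnb1 differed by 0.27 on the log2 scale (SE 0.10), with an edgeR adjusted p of 0.176. Ccnb2 had 0.21 and Ccna2, the cyclin of S phase and early mitosis, had 0.16. Their partner Cdk1 had 109.5 ± 11.5 CPM in sgCon and 107 ± 16.6 CPM in sgTaz tumors (SD, n = 5), a log2 fold change of -0.030. Of the phosphatases that activate CDK1, Cdc25c had 0.21 and Cdc25b -0.073.

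The mitotic kinases Plk1, Aurka and Plk4 had log2 fold changes between 0.25 and 0.28. Aurka (ENSMUSG00000027496.15), which encodes Aurora A, had 34.4, 31.1, 33.2, 33.7 and 34.7 CPM in sgCon tumors 1 to 5, and 52.8, 42.5, 35.7, 40.9 and 30.1 CPM in sgTaz tumors 1 to 5. In this gene 4 sgTaz tumors lay above all sgCon tumors, and sgTaz tumor 5 lay below all of them. The edgeR adjusted p of Aurka was 0.243.

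The chromosomal passenger complex, which corrects wrong attachments, had a median log2 fold change of 0.021 over 4 genes. Aurkb (ENSMUSG00000020897.12), its kinase, had 47.3, 38.2, 40.5, 36.7 and 44.4 CPM in sgCon tumors 1 to 5, and 62.6, 47.4, 46.9, 48.7 and 36.1 CPM in sgTaz tumors 1 to 5. Again sgTaz tumor 5 was the lowest of all. The log2 fold change was 0.22 with an edgeR adjusted p of 0.346. Cdca8 (borealin) had 0.075, Incenp -0.033 and Birc5 (survivin) -0.14.

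The spindle checkpoint had 4 of 5 genes above 0. Ttk (ENSMUSG00000038379.15), the kinase that starts checkpoint signaling, had 28.1, 23.8, 24.8, 21.0 and 28.3 CPM in sgCon tumors 1 to 5, and 34.1, 30.9, 27.4, 31.2 and 26 CPM in sgTaz tumors 1 to 5. The groups overlapped, and the edgeR adjusted p was 0.219 at a log2 fold change of 0.25. Bub1b had 0.26, Bub1 0.25, Mad2l1 0.19 and Bub3 -0.014.

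Of the genes of the APC/C and its targets, Cdc20 (ENSMUSG00000006398.15), which activates it, had 64.5, 58.5, 64.9, 57.5 and 71.2 CPM in sgCon tumors 1 to 5, and 86.0, 73.3, 73.6, 69.4 and 64.8 CPM in sgTaz tumors 1 to 5. The groups overlapped. Its log2 fold change was 0.21 with an edgeR adjusted p of 0.201. Espl1 (separase) had 0.23, the ubiquitin-conjugating enzyme Ube2c 0.0075 and Pttg1 (securin) -0.083.

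Of the transcription factors, Foxm1 (ENSMUSG00000001517.14) had 57.6, 49.7, 60.2, 45.3 and 67.8 CPM in sgCon tumors 1 to 5, and 90.1, 71.6, 63.9, 65.1 and 57.0 CPM in sgTaz tumors 1 to 5. The groups overlapped, and the edgeR adjusted p was 0.222 at a log2 fold change of 0.31. Mybl2, which encodes B-MYB, had 0.14.

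Levels per kilobase of exon were taken over all annotated exons of a gene merged, not over its longest transcript. By this measure Top2a was the most abundant of the 52 genes in sgCon tumors (54.0 CPM per kb), followed by Smc4 (45.2) and Ccnb2 (34.5). Cdc25c (3.24), Espl1 (3.52) and Knl1 (3.52) were the lowest, so both the highest and a low level were found among the genes with the largest fold changes.

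The tumors of a group were not alike. SgTaz tumor 1 was the highest of all 10 tumors in 39 of the 52 genes, and sgCon tumor 4 was the lowest in 33. The mean log2 CPM over the 52 genes ran from 5.65 to 5.98 over sgCon and from 5.87 to 6.32 over sgTaz tumors, so the groups overlapped. SgTaz tumor 5 was the lowest of its group in 35 genes, and its median difference from the sgCon mean was 0.042 on the log2 scale, against 0.44 in sgTaz tumor 1.

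**Figure D3:**
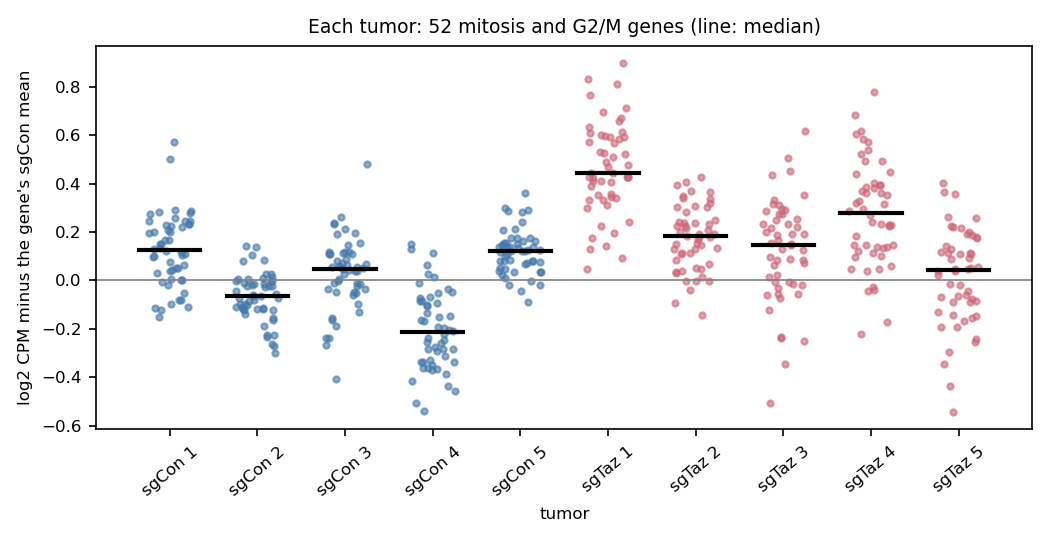
Log2 CPM of each of the 52 genes minus its mean over sgCon tumors (y axis) in each tumor (x axis), with the median as a black line. The median is -0.21 in sgCon tumor 4, 0.042 in sgTaz tumor 5 and 0.44 in sgTaz tumor 1.

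SgCon tumor 4 and sgTaz tumor 1 were picked from the levels of these same genes, as the lowest and the highest tumor. Leaving both out was therefore bound to make the difference smaller. Without these tumors together, the median log2 fold change of the 52 genes was 0.10. At an unadjusted edgeR p below 0.05, 7 were higher (13.5%), against 8.10% of all genes. DESeq2 then called 3, Knl1, Anln and Top2a (5.77%), against 2.31% of all genes higher. With each tumor left out in turn, DESeq2 called between 3 and 10 of the 52 (5.77% to 19.2%), and these 3 genes were among them each time. The share of all genes called higher ran from 1.15% to 5.44% over the same fits. The number at an unadjusted edgeR p below 0.05 was 8 without sgTaz tumor 1, 9 without sgCon tumor 4 or sgTaz tumor 4, 10 without sgCon tumor 2 and between 8 and 25 over all tumors left out. Without sgTaz tumor 1 the 8 genes were 15.4% of the 52, against 8.05% of all genes.

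The fold change of a gene moved with its length. Over the 52 genes, log2 fold change and transcript length had a Pearson r of 0.38 and a Spearman rho of 0.37, and over all genes 0.19 and 0.23. These genes share libraries and are not independent. The 26 longer genes had 15 at an unadjusted p below 0.05 and 5 without overlap, and the 26 shorter ones had 4 and 0. Among all genes longer than the shorter 26, 14.9% were higher at an unadjusted p below 0.05 and 3.92% had no overlap, and among the rest 6.24% and 1.38%. An offset for gene length (all exons merged) and GC content was fitted to take such trends out of each tumor, so a smaller r follows from its making. With this offset in the edgeR fit, r with the longest transcript was 0.081 over the 52 genes. Their median log2 fold change was 0.26 against 0.048 over all genes, and Knl1, Top2a and Anln had 0.56, 0.47 and 0.44. The number without overlap was then 2 (3.85%), against 3.07% of all genes, so that this share was near the background with the offset. At an unadjusted p below 0.05, 25 of the 52 were higher with the offset (48.1%), against 13.0% of all genes. The offset also changed the balance over all genes at an unadjusted p below 0.05, from 1461 higher and 1765 lower to 1933 higher and 1097 lower.

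**Figure D4:**
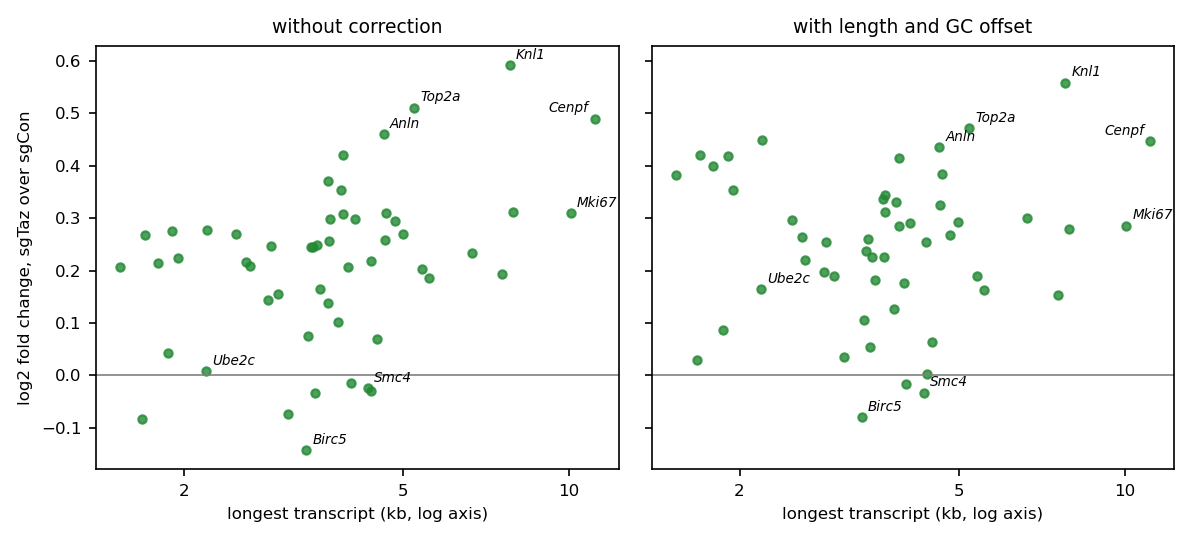
Log2 fold change between sgTaz and sgCon tumors (y axis) against the length of the longest transcript in kb (x axis, log scale) for the 52 genes, without (left) and with (right) an offset for length and GC content. Pearson r was 0.38 without the offset and 0.081 with it, where the offset was fitted to remove such a trend.

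Other parts of the cell cycle were read from lists of genes outside the 52. Of 99 other mitosis genes tested, 73 had a log2 fold change above 0, with a median of 0.10, and 23 were higher and 1 lower at an unadjusted edgeR p below 0.05. The share higher was 23.2%, against 9.86% of all genes, and the share lower was 1.01%, against 11.9%. edgeR called 0 of them, DESeq2 7 (7.07%, against 3.6% of all genes) and limma-voom 11 (11.1%, against 4.63%), all higher. Iqgap3, Kif14 and Depdc1a had the lowest p, with log2 fold changes of 0.45, 0.48 and 0.47. In each of these genes all sgTaz tumors lay above all sgCon tumors. Over the list this held for 4 of the 99 (4.04%), against 2.44% of all genes. In 1 of the 99 all sgTaz tumors lay below all sgCon tumors, against 2.13% of all genes.

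DNA replication and G1/S genes stood closer to the background. Of 52 such genes, 30 had a log2 fold change above 0, with a median of 0.044, and 7 were higher and 1 lower at an unadjusted p below 0.05. The share higher was 13.5%, against 9.86% of all genes, and the share lower was 1.92%, against 11.9%. edgeR called 0, DESeq2 1 (1.92%, against 3.6% of all genes) and limma-voom 2 (3.85%, against 4.63%), all higher. Pole, the leading-strand polymerase, had 31.8 ± 2.66 CPM in sgCon and 42.5 ± 6.57 CPM in sgTaz tumors (SD, n = 5), a log2 fold change of 0.42. Rrm1 had 0.28 and Cdc45 0.23. The difference between this list and the mitosis genes was not tested.

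CDK inhibitors and genes of RB and DREAM, which regulate entry into the cycle, were split evenly. Of 31 genes, 16 had a log2 fold change above 0, with a median of 0.0078. At an unadjusted p below 0.05 edgeR had 5 higher (16.1%, against 9.86% of all genes) and 3 lower (9.68%, against 11.9%), and it called 0. DESeq2 and limma-voom each called 3 higher (9.68%, against 3.6% and 4.63% of all genes) and 1 lower, against 3.63% and 5.8% of all genes. In 3 of the 31 (9.68%, against 2.44% of all genes) all sgTaz tumors lay above all sgCon tumors, a share close to that of the mitosis genes. Lin54, the MuvB subunit that binds the CHR, had 21.4 ± 1.38 CPM in sgCon and 27.7 ± 1.63 CPM in sgTaz tumors (SD, n = 5), a log2 fold change of 0.37 with an edgeR adjusted p of 0.0896. Tfdp2 had 0.35, and Cdk6, a cyclin-dependent kinase in this list and not an inhibitor, had 0.31. In each of these 3 genes the groups did not overlap.

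Several lists of cell type markers also differed between the groups in 1 direction. All 11 tumor epithelium markers had a log2 fold change below 0, and their mean log2 CPM was between 6.17 and 7.77 in sgCon and between 5.78 and 7.44 in sgTaz tumors. The lowest, 5.78, was in sgTaz tumor 1, where most mitosis genes were highest. The highest, 7.77, was in sgCon tumor 1, which had the highest mean of the mitosis genes among sgCon tumors. All 9 macrophage markers were above 0, with 6.38 to 7.44 in sgCon and 7.26 to 7.80 in sgTaz tumors. All 9 B cell markers were below 0, with 2.80 to 6.67 in sgCon and -1.61 to 4.56 in sgTaz tumors. The 4 lymph node stroma markers that passed the filter were also below 0 and had 2.57 to 6.76 in sgCon and -1.89 to 5.41 in sgTaz tumors. The highest sgTaz value was in tumor 5, which had the lowest levels of most mitosis genes in its group. In sgCon the lowest value was in tumor 4, which also had the lowest levels of most mitosis genes. All 7 neutrophil markers and all 7 T cell markers that passed the filter were below 0, with 4.41 to 6.21 in sgCon and 3.40 to 5.25 in sgTaz tumors for neutrophils, and 2.87 to 6.02 and 2.26 to 4.15 for T cells. All 6 adipocyte markers that passed were above 0, with 0.99 to 3.18 in sgCon and 0.35 to 4.61 in sgTaz tumors. Fibroblast markers were above 0 in 6 of 10 and endothelium markers in 5 of 8. Of those that passed the filter, germinal center B cell markers were above 0 in 2 of 5 and skeletal muscle markers in 1 of 4. The germinal center B cell markers had 2.78 to 4.65 in sgCon and 2.57 to 3.69 in sgTaz tumors. In each of the lists named here the levels of the groups overlapped. The part of these cells in the levels of the mitosis genes was not tested.

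**Figure D5:**
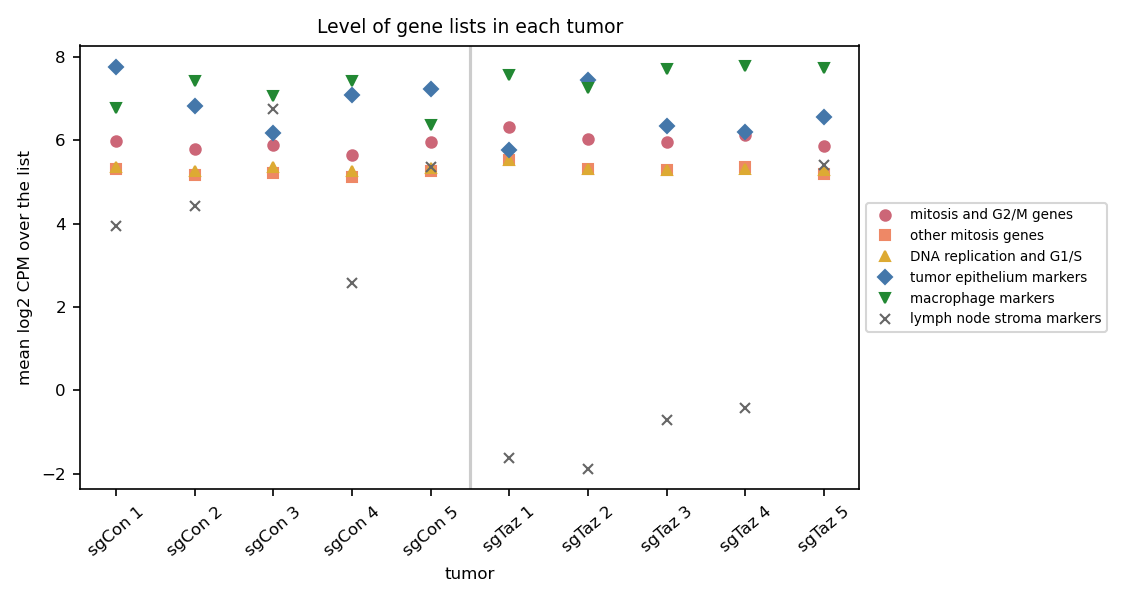
Mean log2 CPM (y axis) over the genes of 6 lists in each tumor (x axis), with sgCon tumors left and sgTaz tumors right of the line. The mitosis and G2/M genes run from 5.65 to 6.32, and the lymph node stroma markers run from -1.89 to 6.76.

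The counts of 15 of the 52 genes are less certain because some of their exon bases are shared with another gene, and the strand setting of the counting is not given in the sources used here. These are Ccna2, Cdc25b, Cdc25c, Plk1, Cdca8, Cdc20, Ube2c, Kif4, Nusap1, Prc1, Kif20a and Ncapg with a gene on the other strand, and Ncapd2, Top2a and Foxm1 with a gene on the same strand. In Top2a the shared stretch is 122 of 9013 exon bases, and in Prc1 it is 911 of 8225.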

How the data were processed

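RNA of 10 whole tumors was sequenced by the authors on an Illumina HiSeq 2000. Alignment was done by the authors with STAR (2-pass) against mm10 and GENCODE, and featureCounts gave their gene counts. Deposited were raw counts, as whole numbers for 17864 genes, with no scaling. Tool versions and the strand setting are not given in the sources used here. Of its columns, 5 match no sample label and were left out.

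Tumors were grouped by the guide in the labels. Identifiers were matched to GENCODE M21 (17860 of 17864). In R 4.3.3, edgeR 4.0.16 was run with TMM, filterByExpr by group, glmQLFit and glmQLFTest, and Benjamini-Hochberg adjustment over the 14816 genes kept, with a threshold of 0.05. DESeq2 1.42.0 and limma 3.58.1 (voom with sample quality weights) were alternatives, as were RLE and upper-quartile factors, no filter, at least 10 counts in every tumor, the replicate number as a block, a length and GC offset (loess span 0.3), and each tumor left out. Leaving out sgCon tumor 4 with sgTaz tumor 1, and DESeq2 with each tumor left out, were chosen after seeing the data. Log2 CPM used a prior count of 2, and permutation tests enumerated 252 assignments. The study's own analysis used DESeq2. Python 3.11.15 with pandas 2.3.3 made the tables and promoter counts. The scripts were tested on simulated data with 200 changed genes. There edgeR recovered 173 of them with 6 false calls among 179, and DESeq2 181 with 33 false calls among 214. Limma-voom recovered 172 with 4 false calls among 176.

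The 52 genes and the other lists were chosen with earlier results of these data known. Given in full are the gene with the lowest edgeR p in each of 10 role groups and the 5 genes without overlap, 11 in all. Of each other list the 3 genes with the lowest p are named. Total counts were 12185383 to 19595821 per tumor. SDs of CPM are the spread between 5 tumors a group, and SEs of log2 fold changes were derived from the edgeR test.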

Additional observations from a re-analysis of the deposited data

Results flagged for a closer look

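Values were flagged where a tumor stood far from the other tumors of its group by Dixon's test at the 95% level, in 4 of 134 groups of values examined, where chance alone gives about 6.7. Among the 104 groups of single mitosis and G2/M genes, 1 was flagged. Ncapg, a condensin subunit, had a log2 CPM of 5.25 in sgCon tumor 4, and the other sgCon tumors had 5.54 to 5.66. The mean log2 CPM of the DNA replication and G1/S genes was 5.53 in sgTaz tumor 1 against 5.30 to 5.32 in the other sgTaz tumors. In sgTaz tumor 5 the T cell markers had 4.15 against 2.26 to 2.71, and the lymph node stroma markers had 5.41 against -1.89 to -0.44. The cause of these values was not tested.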

How the results depend on the processing

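Over 19 alternatives for each of the 52 genes, 941 of 988 fold changes kept their direction and their side of the threshold, 14 passed it only in the alternative, and 33 turned direction, in 10 genes. edgeR called 1 gene higher and 0 lower over the whole table, DESeq2 533 and 537, limma-voom 686 and 860, and edgeR on genes with 10 counts or more in each tumor 4 and 1. No filter, the replicate block, the length and GC offset and leaving out sgCon tumor 4 with sgTaz tumor 1 each gave 0 higher, and leaving out 1 tumor gave 0 to 42 higher and 0 to 130 lower. Of the 52 genes DESeq2 and limma-voom called 7 each, of other mitosis genes 7 and 11 (edgeR 0 to 1 with 1 tumor left out), of DNA replication genes 1 and 2, and of CDK inhibitor, RB and DREAM genes 3 higher and 1 lower each. At an unadjusted p below 0.05, edgeR had 12 of the 52 higher with the replicate block, 7 without sgCon tumor 4 and sgTaz tumor 1, and 8 to 25 with 1 tumor left out, against 7.18%, 8.10% and 6.88% to 11.1% of all genes. The genes without overlap were 2 with the offset (3.85%, against 3.07% of all genes) and 5 to 12 with 1 tumor left out (9.62% to 23.1%, against 2.67% to 5.53%), and DESeq2 called 3 to 10 of the 52 with 1 tumor left out and 3 without both tumors. The offset lowered the number of all genes lower at an unadjusted p below 0.05 to 1097. Wwtr1 had log2 fold changes of -0.58 by DESeq2 and -0.59 by limma-voom, past the threshold. The cause of these differences was not tested.

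Fold changes near 0 turned direction. With the offset, log2 fold changes were 0.0033 for Cdk1, 0.035 for Cdc25b, 0.055 for Incenp and 0.030 for Pttg1. Ube2c had -0.10 by limma-voom, -9.2e-05 with at least 10 counts in every tumor, -0.013 with the replicate block and -0.076 without sgCon tumor 4 and sgTaz tumor 1, where Cdca8 had -0.0088 and Racgap1 -0.036. Without a filter Bub3 had 0.012 and Smc4 0.0061, and limma-voom gave Smc4 0.00060. With 1 tumor left out, log2 fold changes ran from -0.11 to 0.034 for Cdk1, -0.15 to 0.073 for Cdc25b, -0.10 to 0.048 for Incenp, -0.050 to 0.020 for Bub3, -0.10 to 0.086 for Ube2c, -0.20 to 0.0090 for Pttg1, -0.040 to 0.11 for Spc25, -0.0099 to 0.12 for Racgap1, -0.11 to 0.052 for Smc4.

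The labels do not say whether tumors with the same replicate number belong together. Deviations of same-numbered tumors from their group means had correlations between -0.24 and 0.22, which cannot decide whether they were handled together. Each of the 52 genes had at least 195 counts in every tumor. With 5 tumors a group, a p that misses the threshold does not show that the groups are alike.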
